A study of Mus musculus with 6 samples.

Results

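The interferon receptor chains Ifngr1, Ifngr2, Ifnar1 and Ifnar2, the kinase Jak1 and the feedback inhibitors Socs1 and Socs3 were followed in kidney αβ T cells. These 7 genes were chosen by symbol among the 32285 features of each matrix, and each symbol matched 1 feature. Their counts of unique molecular identifiers (UMIs) were read in all 6 single-cell libraries. Cells had been sorted as CD45+ TCRβ+ cells from kidneys of male C57BL/6J wild-type mice aged 7 to 8 weeks, and separated into CD4, CD8 and CD4-CD8- (double-negative, DN) T cells. The control kidneys were normal, and the ischemia-reperfusion (IR) kidneys had both renal pedicles clamped for 30 min before blood flow was restored. Each of the 6 groups (control or IR, in CD4, CD8 or DN cells) was 1 library, so no difference has a replicate check and no test was run. How many mice entered a library and when its cells were harvested were not given in the sources used here.

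Interferon gamma signals through a receptor built from the ligand-binding chain IFNGR1 and the signalling chain IFNGR2, and type I interferons signal through IFNAR1 and IFNAR2. JAK1 is a kinase bound to both receptors, where it works with JAK2 or TYK2 to activate STAT transcription factors. SOCS1 and SOCS3 are induced by cytokine signalling and inhibit it, SOCS1 by blocking the kinases of interferon receptors and SOCS3 mainly at receptors that use the gp130 chain. Activated type 1 helper T cells, which secrete interferon gamma, are known to lose the IFNGR2 chain and to become unresponsive to the cytokine.

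After filtering, 47939 of 54039 barcodes were analysed as T cells, between 4042 and 10108 per library. The pooled depth was 45565699 to 60786311 UMIs in the control libraries and 4387390 to 15480161 in the IR libraries, and levels are given as counts per 1e6 UMIs of each pool (CPM). A gene at or below 0.0494 to 0.684 CPM, the level of 3 UMIs in a library, was below the counting floor. The counting software was Cell Ranger 5.0.1 in the headers of the control files and 6.0.1 in those of the IR files, so condition, software version and depth cannot be told apart. The sort was visible in the counts, with Cd4 at 210 and 146 CPM in the control and IR CD4 libraries and at 0.47 CPM or lower in the others, and Cd8a at 867 and 399 CPM in the CD8 libraries and at 0.25 CPM or lower in the others. Between 6 and 30 barcode sequences were shared by any pair of libraries among the T cells. Intervals are 95% counting intervals and cover counting error only. A gene was called higher or lower where it differed at least 2-fold and reached 10 CPM in the higher library.

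The regulatory sequence near the start of the inhibitor genes is shown first because Socs1 and Socs3 were the members called higher in all 3 subsets of the IR kidney. The windows searched ran from 250 bases before to 50 bases after each RefSeq start (GRCm38.p6), on both strands, for GAAA, any 2 bases and GAAA again (a form of the interferon-stimulated response element, ISRE) and TTCNNNGAA (a form of the gamma-activated site, GAS, bound by STAT dimers). Matched letters are in capitals and the gene's own strand is shown.
Socs1, chr16:10785584-10785639, minus strand: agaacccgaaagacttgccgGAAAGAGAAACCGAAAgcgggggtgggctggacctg
Socs3, chr11:117969492-117969540, minus strand: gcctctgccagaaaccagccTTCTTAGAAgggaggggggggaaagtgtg
Ifnar2, chr16:91372549-91372597, plus strand: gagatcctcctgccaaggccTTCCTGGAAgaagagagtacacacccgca

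The Socs1 window held 2 overlapping ISRE matches, 83 to 68 bases before the start, and no GAS match. The Socs3 window held 1 GAS match 154 to 146 bases before the RefSeq start, in an intron of a longer non-coding Socs3 transcript of GENCODE M21. Unlike those of the other members, the bases compared after this start were found in no GENCODE M21 transcript of the gene on either strand. The start and strand of the Socs3 window thus rest on RefSeq alone. The Ifnar2 window held 1 GAS match 214 to 206 bases before the start. In the Ifnar1 window a GAS match crossed the start, and the windows of Ifngr1, Ifngr2 and Jak1 held neither pattern. Of 32817 mouse windows of this length, 3.43% held the ISRE letters and 8.29% the GAS letters. The matches describe these windows and were not related to the counts.

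Ifngr2, Ifnar1 and Ifnar2 are neighbours on mouse chromosome 16, where they lie with Il10rb within 192841 bases (GENCODE M21, GRCm38, 91372783 to 91565623). The 3 genes differed in the order of their levels over the libraries. Ifngr1 lies on chromosome 10, Jak1 on chromosome 4 and Socs3 on chromosome 11, and Socs1 lies on chromosome 16 at 10782240 to 10785536. All 7 are protein-coding. Reads of Ifnar2 can be shared with Gm21970, a gene model on the same strand that overlaps it, so its level is uncertain. Jak1 overlaps 3 short or neighbouring models.

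Ifngr1, the ligand-binding chain of the interferon gamma receptor, was at 919 CPM in control CD4, 727 in control CD8 and 1314 in control DN cells, and at 931, 539 and 1338 CPM in the IR libraries in the same order. DN cells held the highest level in both kidney conditions, followed by CD4 and then CD8 cells. The 2 DN levels did not differ beyond their counting intervals, nor did the 2 CD4 levels. The log2 ratio of IR over control was 0.03 in DN cells, with an interval of -0.01 to 0.06, and 0.02 in CD4 cells, with an interval of -0.01 to 0.05. In CD8 cells it was -0.43. Across all genes tested the median log2 ratio was -0.26 for DN, -0.38 for CD8 and -0.26 for CD4 cells, so the CD8 value lay near the median and the others above it. Within the IR kidney Ifngr1 was 2.48-fold higher in DN than in CD8 cells, with a log2 ratio of 1.31 (1.25 to 1.37). In the control kidney the same log2 ratio was 0.85, short of the 2-fold limit.

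Ifngr2, the signalling chain, followed another order. It was at 8.94 CPM in control CD4 cells and 13.8 CPM in control CD8 cells. The IR CD4 and CD8 libraries held 76.1 and 121 CPM. In DN cells it was at 1.17 CPM (71 UMIs) in the control kidney and 5.24 CPM (23 UMIs) in the IR kidney. The counting intervals of all 6 levels were separate, and DN cells held the lowest level in both conditions, the opposite of Ifngr1. Ifngr2 was 8.51-fold higher in IR than in control CD4 cells, with a log2 ratio of 3.09 (2.93 to 3.25). In CD8 cells it was 8.74-fold higher, with a log2 ratio of 3.13 (2.97 to 3.28). In DN cells the log2 ratio was 2.17 (1.42 to 2.86) and was not called, because neither library reached 10 CPM. The DN levels were near those of stray Cd8b1 (values follow with the shares of cells) and may hold stray counts. Ratios to them are therefore read as lower bounds that leave out counting error. Within the IR kidney Ifngr2 was at least 14.5-fold lower in DN than in CD4 cells and at least 23.0-fold lower in DN than in CD8 cells. In the control kidney it was at least 11.8-fold lower in DN than in CD8 cells, and the measured log2 ratio to CD4 cells was -2.94, not called because CD4 cells were also under 10 CPM.

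**Figure D1:**
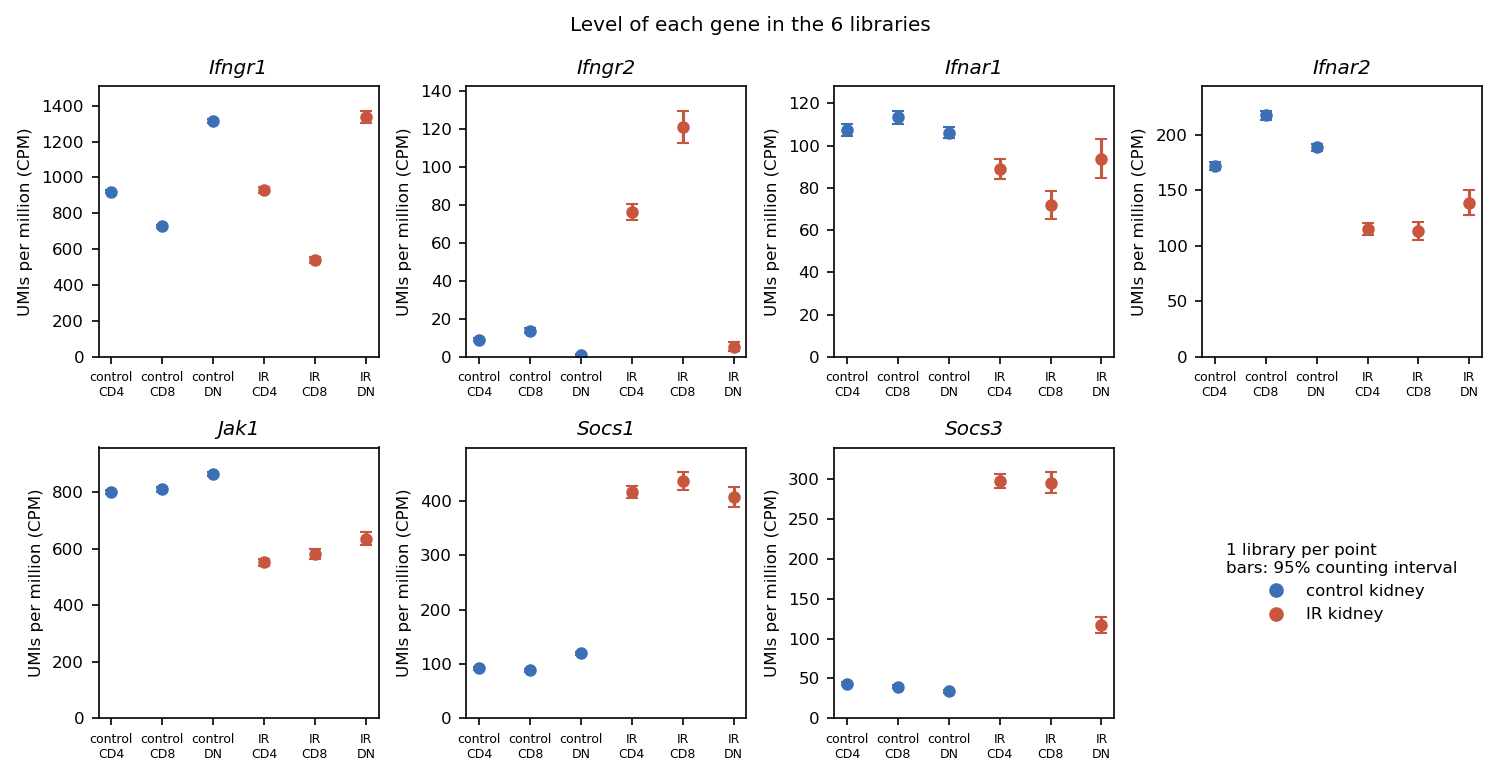
Level of each gene in CPM (y axis from 0) in the 6 libraries (x axis), with control libraries in blue and IR libraries in red. Points are single libraries and bars 95% Poisson counting intervals. Ifngr1 was highest in DN cells (1314 and 1338 CPM), where Ifngr2 was lowest (1.17 and 5.24 CPM), and all 3 IR libraries held more Socs1 and Socs3 than any control library.

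The share of cells with an Ifngr2 UMI showed the same order once each cell had been thinned to 500 UMIs, a depth that every cell reached. The share was 0.551% in control CD4, 0.634% in control CD8 and 0.0225% in control DN cells, and 3.83%, 6.30% and 0.223% in the IR libraries. Before thinning, the median retained UMIs per cell were 5480, 4960 and 6567 in control and 1426, 936 and 1017 in IR cells. For Ifngr1 the thinned shares were 34.4%, 29.3% and 45.5% in control and 32.7%, 21.8% and 46.2% in IR cells. No sorted population here could serve as one that lacks the receptor chains. As a measure of stray transcripts, Cd4, Cd8a and Cd8b1 in the libraries sorted against them were found in 0% to 0.346% of cells at this depth, with Cd8b1 in IR CD4 cells the highest. In control DN cells Cd8b1 was found in 0.112% of cells and at 1.33 CPM in the pooled counts, above Ifngr2 on both scales. Without thinning, 0.674% of these cells held an Ifngr2 UMI, as against 0.798% for Cd8b1, 0.146% for Cd4 and 0.157% for Cd8a. Cd8b1 also had a far larger source, with a mean of 6.71 UMIs per control CD8 cell as against 0.0677 for Ifngr2. Whether Ifngr2 in control DN cells was stray was thus not settled. In IR DN cells the 3 genes were found in 0.0247% of cells each, 1 cell, and Ifngr2 in 9 cells, with an interval of 0.102% to 0.422%. In the pooled IR DN counts Ifngr2 was at 5.24 CPM (3.32 to 7.87) and Cd8b1 at 2.28 CPM (1.09 to 4.19), intervals that overlap, and Cd8b1 reached 6.27 CPM in IR CD4 cells. The share intervals overlap as well, since 1 cell allows up to 0.138%. By its share, Ifngr2 in IR DN cells was thus not separated from these 3 genes at this depth. Without thinning its share there was 0.520% (0.322% to 0.793%), above the intervals of Cd4 (up to 0.179%) and Cd8a (up to 0.138%). The interval of Cd8b1, 0.102% to 0.422%, still overlapped it. No difference of Ifngr2 between the 2 DN libraries is read.

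Within the CD4 and CD8 libraries, Ifngr2 UMIs lay mainly in cells with a UMI of Ccr7, the lymph node homing receptor carried by naive and central memory T cells. In control CD4 cells, the 695 of 9254 cells with a Ccr7 UMI gave 54.6% of the Ifngr2 UMIs and 7.74% of all UMIs. In control CD8 cells, 1567 of 9305 cells gave 77.1% of Ifngr2 UMIs and 20.5% of all UMIs. The shares of Ifngr2 UMIs were 56.4% and 62.3% in IR CD4 and CD8 cells, beside 19.2% and 36.4% of all UMIs. The Ifngr2 level was 63.1 CPM with and 4.40 CPM without a Ccr7 UMI in control CD4 cells, and 52.1 against 3.97 CPM in control CD8 cells. In the IR libraries it was 223 against 41.1 CPM in CD4 cells and 206 against 71.7 CPM in CD8 cells. Ifngr1 ran the other way in these libraries. It was at 382 CPM with and 964 CPM without a Ccr7 UMI in control CD4 cells, 587 against 763 CPM in control CD8, 463 against 1042 CPM in IR CD4 and 492 against 566 CPM in IR CD8 cells. These classes are ranges cut from sparse counts and not cell types, and cells with a Ccr7 UMI held a median of 5356 and 5929 retained UMIs in control and 1384 and 917 in IR CD4 and CD8 cells.

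Genes of naive and recirculating T cells moved with the Ifngr2 difference between IR and control kidney. Ccr7 itself was at 32.9, 85.5 and 0.938 CPM in control CD4, CD8 and DN cells and at 247, 705 and 8.89 CPM in the IR libraries. Of the 9 genes of that list, 7 of 9 measured at 10 CPM were called higher in IR CD4 and in IR CD8 cells, and 2 of 6 in IR DN cells, Klf2 and Il7r, where 7.73%, 7.91% and 8.31% of all genes tested were higher. Klf2 stands also in the list of immediate early genes followed below and was counted in both. Within cells with a Ccr7 UMI, the log2 ratio of Ifngr2 in IR over control was 1.82 (1.61 to 2.04) in CD4 and 1.99 (1.80 to 2.17) in CD8 cells. Within cells without one it was 3.23 (2.99 to 3.47) and 4.17 (3.88 to 4.47). The control levels under this last pair of ratios, 4.40 and 3.97 CPM, are close to the 3.64 CPM of stray Cd8b1 in control CD4 cells. The shallower IR cells without a Ccr7 UMI included 1159 of 8081 CD4 cells in cluster 18 and 1612 of 3960 CD8 cells in cluster 20. These clusters also held most IR cells with a Ccr7 UMI of their library, and Ifngr2 was at 266 and 196 CPM in them. The pair is thus not read as a bound in either direction. Cells with a Ccr7 UMI lay in different clusters in the 2 conditions. Cluster 0 held 502 of the 695 control CD4 cells with a Ccr7 UMI and cluster 18 held 1640 of the 2027 IR CD4 cells, while cluster 13 held 1178 of the 1567 control CD8 cells and cluster 20 held 2229 of the 2372 IR CD8 cells. Cells without a Ccr7 UMI were divided in the same way, mostly in clusters 1, 3 and 7 in control CD4 and in 15 and 19 in IR CD4 cells, and in clusters 11 and 12 in control CD8 and in 14 and 20 in IR CD8 cells. The ratios inside a class are thus between cells of different clusters. In CD4 cells Ifngr2 was at 75.5 CPM in control cluster 0 (651 cells) and 266 CPM in IR cluster 18 (2799 cells). In CD8 cells it was at 54.4 CPM in control cluster 13 (1459 cells) and 196 CPM in IR cluster 20 (3841 cells). The largest other cluster of each library held 1.85 and 6.05 CPM in control and IR CD4 cells, and 0.816 and 3.15 CPM in CD8 cells. How far cell composition and level per cell each entered the library difference was not tested.

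Ifngr2 was also lower in CD4 and CD8 cells with an Ifng UMI than in those without one. In control CD4 cells it was at 2.23 CPM, under the stray Cd8b1 level, in the 5422 cells with an Ifng UMI and 20.8 CPM in the 3832 without, and in control CD8 cells at 3.95 against 25.4 CPM. The IR values were 10.5 against 120 CPM in CD4 and 14.9 against 150 CPM in CD8 cells. In DN cells both classes were under 10 CPM. These classes too are cut from sparse counts, no population here gave a background share for Ifng, and cells with an Ifng UMI were deeper, with a median of 5868.5 against 4882 retained UMIs in control CD4, 5414.5 against 4484 in control CD8, 1561 against 1360 in IR CD4 and 1069.5 against 908 in IR CD8 cells. For Ifngr1 the log2 ratio of cells with over cells without an Ifng UMI was 0.23 and 0.20 in control CD4 and CD8 cells, 0.50 and 0.27 in the IR libraries, and -0.08 and -0.05 in control and IR DN cells. Ifngr1 thus differed by less than 2-fold between cells with and without an Ifng UMI. In CD4 cells with a UMI of Foxp3, the master factor of regulatory T cells, Ifngr2 was at 17.7 CPM against 8.55 CPM in the others in control, and at 31.4 against 77.6 CPM in IR. The Foxp3 values rest on few counts, 38 UMIs in 342 control cells and 1.36% of the Ifngr2 UMIs in 309 IR cells. Within these cells the log2 ratio of IR over control was 0.82 (-0.12 to 1.70), an interval that takes in no difference.

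**Figure D2:**
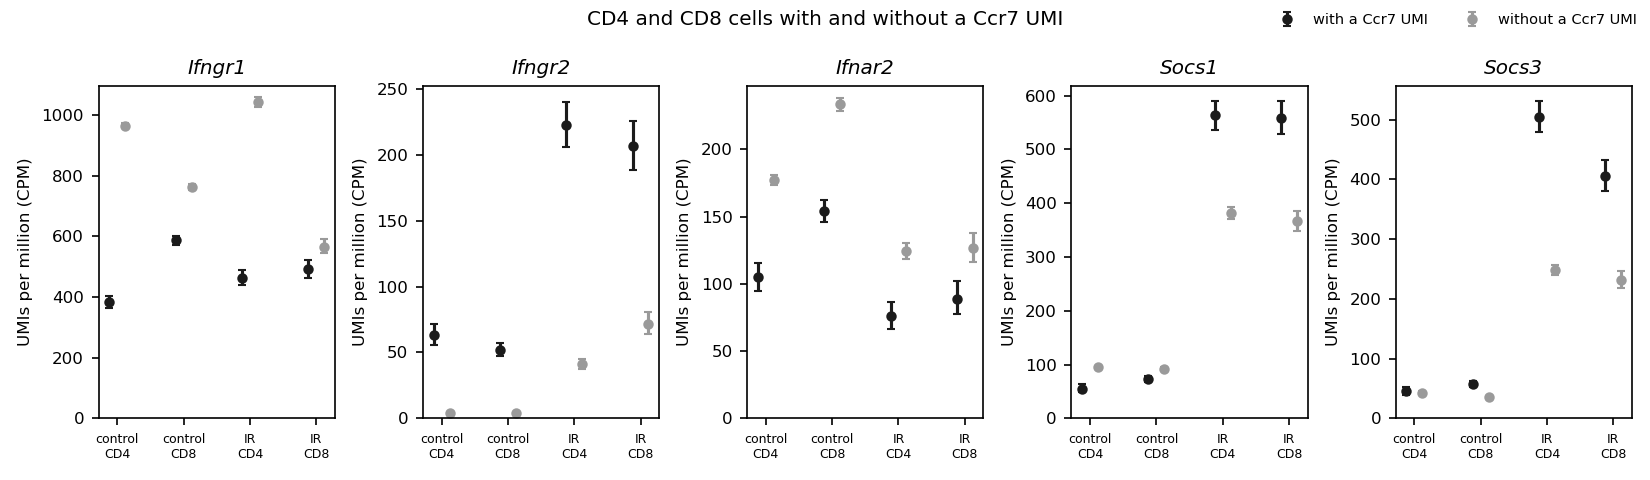
Level in CPM (y axes from 0) of 5 genes in cells with a Ccr7 UMI (black) and without (grey) in the control and IR CD4 and CD8 libraries (x axis). Bars are 95% Poisson counting intervals. Ifngr2 was higher in cells with a Ccr7 UMI in all 4 libraries (223 against 41.1 CPM in IR CD4) and Ifngr1 lower (463 against 1042 CPM in IR CD4).

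Ifnar1, a chain of the type I interferon receptor, was at 107, 113 and 106 CPM in control CD4, CD8 and DN cells and at 88.8, 71.6 and 93.4 CPM in IR cells. Ifnar2, its partner, was at 171, 217 and 188 CPM in control and 115, 113 and 139 CPM in IR cells. All control libraries lay above all IR libraries for both chains, and no difference reached 2-fold. For Ifnar1 the log2 ratio of IR over control was -0.18 (-0.33 to -0.04) in DN, -0.66 (-0.80 to -0.53) in CD8 and -0.27 (-0.36 to -0.19) in CD4 cells. For Ifnar2 it was -0.44, -0.94 and -0.58 in the same order. The Ifnar1 values in DN and CD4 cells lay close to the median of all genes, which was -0.26 in both. After centring by intron length Ifnar1 was at 0.01, -0.35 and -0.14 in DN, CD8 and CD4 cells, and Ifnar2 at -0.03, -0.45 and -0.11. With ribosomal, mitochondrial and Malat1 UMIs kept in the total, both chains passed the 2-fold limit in CD8 cells, at -1.09 for Ifnar1 and -1.37 for Ifnar2. Within a condition the subsets lay close together, with log2 ratios between -0.34 and 0.38 for both chains over the 6 comparisons.

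Cells without a Ccr7 UMI held more Ifnar2 than cells with one in all 4 CD4 and CD8 libraries, with log2 ratios of cells with over cells without of -0.75 and -0.60 in control CD4 and CD8 cells and -0.71 and -0.51 in the IR libraries. For Ifnar1 these were -0.28, -0.07, -0.13 and 0.16. Neither type I chain thus showed the order of Ifngr2, which was higher with a Ccr7 UMI in all 4 libraries. Il10rb, the interleukin-10 receptor chain in the same block, was at 88.3, 132 and 128 CPM in control CD4, CD8 and DN cells and at 65.4, 76.6 and 92.5 CPM in IR cells.

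Jak1, the kinase shared by both receptors, was at 800, 809 and 863 CPM in control CD4, CD8 and DN cells and at 551, 581 and 635 CPM in IR cells. All control libraries lay above all IR libraries, and DN cells held the highest level in each condition by a small margin. The log2 ratio of IR over control was -0.44 (-0.50 to -0.39) in DN, -0.48 (-0.53 to -0.43) in CD8 and -0.54 (-0.57 to -0.50) in CD4 cells, none of them called. This direction changed with the genes it was read against. Jak1 holds 105689 intronic bases, and in its bin of genes with like intron length (1 of 20 bins) the median log2 ratio was -0.65 for DN, -0.77 for CD8 and -0.76 for CD4 cells, against 0.34, 0.20 and 0.46 in the bin with the shortest introns. Centred on its bin, Jak1 was at 0.21, 0.29 and 0.22. Whether the software versions counted intronic reads alike was not tested.

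Socs1, the inhibitor of interferon receptor kinases, was at 92.1, 88.6 and 120 CPM in control CD4, CD8 and DN cells and at 417, 437 and 407 CPM in IR cells. Every IR library lay above every control library. The IR levels of neighbouring subsets had overlapping counting intervals, and DN cells held the highest of the control levels. The log2 ratio of IR over control was 1.76 (1.69 to 1.84) in DN, 2.30 (2.23 to 2.37) in CD8 and 2.18 (2.12 to 2.23) in CD4 cells, or 3.39-, 4.93- and 4.52-fold. Socs1 holds 389 intronic bases, and after centring by intron length its log2 ratios were 1.42, 2.11 and 1.72.

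Socs3, the inhibitor that acts at gp130 receptors, was at 43.3, 39.5 and 33.8 CPM in control CD4, CD8 and DN cells and at 298, 295 and 117 CPM in IR cells. Again every IR library lay above every control library, but the IR DN level stood below both other IR levels. The log2 ratio of IR over control was 2.78 (2.71 to 2.85) in CD4, 2.90 (2.81 to 2.997) in CD8 and 1.79 (1.64 to 1.93) in DN cells. The difference of these log2 ratios was -0.99 (-1.15 to -0.84) for DN minus CD4 and -1.12 (-1.28 to -0.95) for DN minus CD8 cells. For Socs1 the same differences were -0.41 (-0.51 to -0.32) and -0.54 (-0.64 to -0.44). Within the IR kidney, Socs3 was 2.55-fold lower in DN than in CD4 cells and 2.53-fold lower than in CD8 cells. With the removed features kept in the total, the log2 ratio to CD8 cells was -0.996, just short of 2-fold.

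In all, 2 of 7 members were called higher in IR than in control DN cells (Socs1 and Socs3), where 8.31% of 9205 genes tested were higher. In CD8 cells 3 of 7 were called higher (Ifngr2, Socs1 and Socs3), where 7.91% of 9114 genes were higher, and the same 3 of 7 in CD4 cells, where 7.73% of 9040 genes were higher. No member was called lower in these comparisons, against 11.3%, 17.7% and 15.1% of genes in DN, CD8 and CD4 cells. Between control subsets, 0 of 7 members were called for DN against CD4 cells, where 1.35% of 8863 genes were higher in DN cells and 1.4% lower. Likewise 0 of 7 were called for CD4 against CD8 cells, where 2.61% of 8921 genes were higher and 1.75% lower. For control DN against CD8 cells 1 of 7 was lower, Ifngr2, against 3.03% of 8973 genes, and 0 of 7 higher, against 3.54%. In the IR kidney 2 of 7 were lower in DN than in CD4 cells, Ifngr2 and Socs3, against 2.46% of 8903 genes, and 0 of 7 higher, against 4.84%. Between IR DN and CD8 cells 1 of 7 was higher, Ifngr1, against 7.73% of 8989 genes, and the same 2 of 7 were lower, against 4.23%. None of the 7 was called for IR CD4 against CD8 cells, where 3.72% of 8753 genes were higher in CD4 cells and 3.91% lower. The 3 comparisons within a condition share libraries with each other.

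**Figure D3:**
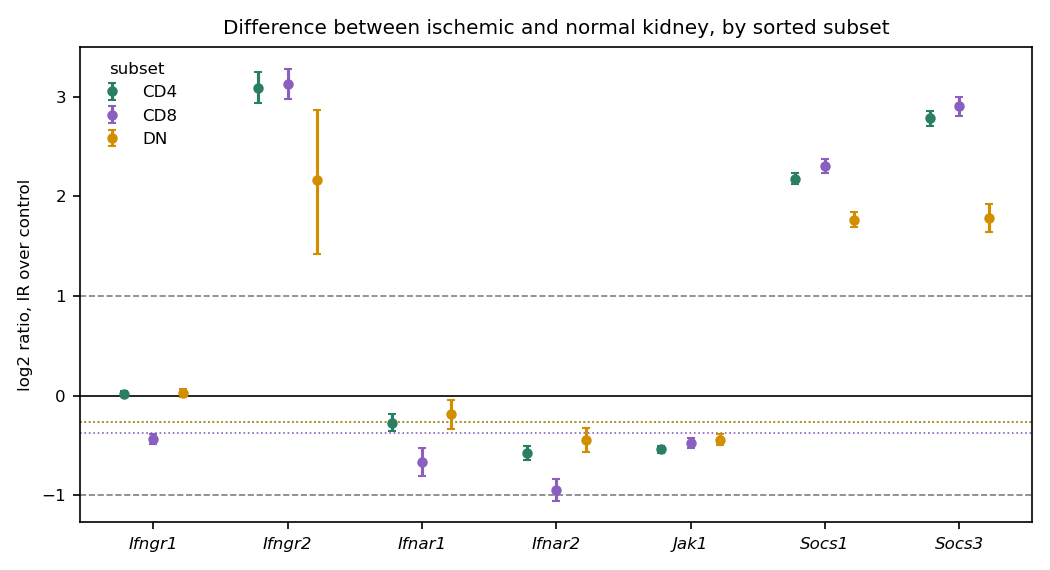
The log2 ratio of IR over control (y axis) for each gene (x axis) in CD4, CD8 and DN cells, with 95% counting intervals. Dashed lines mark 2-fold and dotted lines the median of all genes in each subset (-0.26 in CD4 and DN, -0.38 in CD8). Socs1 and Socs3 lay above 1 in all 3 subsets, at 1.76 and 1.79 in DN cells, and the receptor chains Ifngr1, Ifnar1 and Ifnar2 and the kinase Jak1 lay at or below 0.03.

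In cells thinned to 500 UMIs, Socs1 was found in 3.90%, 4.18% and 6.00% of control CD4, CD8 and DN cells as against 17.8%, 18.8% and 18.1% of IR cells, and Socs3 in 2.14%, 1.97% and 1.62% of control and 12.5%, 13.3% and 5.34% of IR cells. Both the share and the pooled level were thus higher in IR cells. Within the IR CD4 and CD8 libraries both inhibitors were higher in cells with a Ccr7 UMI. Socs3 was at 505 CPM with and 248 CPM without one in IR CD4 cells and at 406 against 232 CPM in IR CD8 cells, and Socs1 at 563 against 382 CPM and 559 against 367 CPM. In the control libraries Socs1 lay the other way, at 55.4 against 95.2 CPM in CD4 and 73.7 against 92.4 CPM in CD8 cells. Inside the class with a Ccr7 UMI, the log2 ratio of IR over control was 3.35 for Socs1 and 3.48 for Socs3 in CD4 cells, and 2.92 and 2.82 in CD8 cells. Inside the class without one it was 2.00 and 2.52 in CD4, and 1.99 and 2.73 in CD8 cells. As for Ifngr2, most control and IR cells of a class lay in different clusters (with a Ccr7 UMI, 0 and 18 in CD4 and 13 and 20 in CD8 cells), so these ratios too are between cells of different clusters.

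Cells with UMIs of at least 3 distinct type I interferon targets (after thinning) made up 2.08% to 3.42% of each library. For Socs1 the log2 ratio of these cells over the others was 0.90, 0.58 and 0.70 in control CD4, CD8 and DN cells, as against 0.27, -0.01 and 0.45 in the IR libraries. Socs3 gave 0.45, 0.24 and 0.21 in control and 0.00, 0.05 and -0.25 in IR cells. The IR DN class held 111 cells.

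The pathway around the 7 genes was followed with 8 lists that hold 72 other genes. Of the 9 interferon ligand genes listed, Ifng was the only one at 10 CPM. Ifng was at 450, 340 and 474 CPM in control CD4, CD8 and DN cells and at 656, 390 and 1035 CPM in IR cells. It was called higher in IR DN cells, with a log2 ratio of 1.13, and not in CD8 or CD4 cells, with ratios of 0.20 and 0.54. The type I and type III ligand genes were at 0.155 CPM or lower in every library. DN cells from the IR kidney thus held the highest Ifng level.

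Among the receptor chains outside the 7, the interleukin-12 receptor chains Il12rb1 and Il12rb2 were called lower in IR cells of all 3 subsets, 2 of 5 measured chains in each. Of all genes tested, 15.1%, 17.7% and 11.3% were lower in CD4, CD8 and DN cells. Il12rb2 was at 317, 104 and 468 CPM in control CD4, CD8 and DN cells and at 91.5, 29.0 and 198 CPM in IR cells. Il6st and Il6ra, the gp130 chain and the interleukin-6 receptor chain, were lowest in DN cells, at 22.0 and 14.0 CPM in control and 16.6 and 19.4 CPM in IR, against 46.1 to 74.4 CPM in the CD4 and CD8 libraries. The other kinases Jak2, Jak3 and Tyk2 were not called between IR and control. Between IR subsets Jak2 was at 80.0 CPM in CD8 and 224 CPM in DN cells, a log2 ratio of 1.48.

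Of the 6 STAT and IRF factors, Stat4, which carries interleukin-12 signals, was called lower in all 3 subsets, from 689, 708 and 850 CPM to 280, 247 and 353 CPM in CD4, CD8 and DN cells. Irf1 was not called and went from 296, 313 and 287 CPM to 460, 525 and 361 CPM. Irf9 was called lower in DN cells, with a log2 ratio of -1.01.

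None of the other 6 SOCS genes was called higher in IR cells of any subset. Over all genes tested, 8.31%, 7.91% and 7.73% were higher in DN, CD8 and CD4 cells, so 6 genes could give no call by these shares alone. In CD8 cells 2 of 6 were lower, Socs2 and Socs5, with log2 ratios of -1.35 and -1.13, beside 17.7% of all genes. The list median was -0.04 for DN, -0.65 for CD8 and -0.10 for CD4 cells, beside -0.26, -0.38 and -0.26 for all genes. Socs2 set CD8 cells apart from the other subsets, at 108, 19.4 and 184 CPM in control CD4, CD8 and DN cells and at 123, 7.60 and 235 CPM in IR cells. Between DN and CD4 cells it was not called in either condition. Among the 9 other brakes on this pathway (phosphatases, PIAS proteins and Usp18), 1 was called lower in DN and 1 in CD8 cells, in both cases Ptpn11, and none in CD4 cells. Over all genes tested, 11.3%, 17.7% and 15.1% were lower in DN, CD8 and CD4 cells.

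The interferon gamma targets gave 0 higher and 5, 6 and 5 lower of 16 measured genes in IR DN, CD8 and CD4 cells, with medians of -0.57, -0.86 and -0.67. Over all genes tested the medians were -0.26, -0.38 and -0.26, and 11.3%, 17.7% and 15.1% were lower. No values centred by intron length are given for these targets. Nlrc5, the activator of MHC class I genes, was at 292, 359 and 275 CPM in control CD4, CD8 and DN cells and at 118, 131 and 112 CPM in IR cells. Gbp7, a guanylate-binding protein gene, was called lower in DN and CD8 cells, with log2 ratios of -1.07 and -1.20, and Igtp, an immunity-related GTPase, in DN and CD4 cells, with -1.39 and -1.16. The type I targets gave 1 higher and 1 lower of 14 measured genes in DN cells, 0 and 1 of 13 in CD8 and 1 and 1 of 15 in CD4 cells. The gene called higher was Isg20 in DN cells, with a log2 ratio of 1.33, and Ifi27l2a in CD4 cells, with 1.08. The gene called lower was Ifit2 in each subset, with -1.09 in DN, -1.80 in CD8 and -1.05 in CD4 cells. Some genes stand in 2 lists, such as Irf1 among the factors and the gamma targets, and were counted in each. Of the 72 genes, each counted once, 56, 54 and 57 reached 10 CPM in DN, CD8 and CD4 cells. Of these, 2, 0 and 1 were higher (3.57%, 0% and 1.75%), beside 8.31%, 7.91% and 7.73% of all genes tested, and 11, 13 and 9 were lower (19.6%, 24.1% and 15.8%), beside 11.3%, 17.7% and 15.1%.

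Immediate early genes, which respond within minutes to stress, stimulation and tissue digestion, moved with Socs1 and Socs3. Of 16 measured genes, 8, 8 and 9 were called higher in IR DN, CD8 and CD4 cells and none lower, with median log2 ratios of 1.19, 1.12 and 1.43. Over all genes tested, 8.31%, 7.91% and 7.73% were higher and 11.3%, 17.7% and 15.1% lower in the same order. Junb was at 2077, 1776 and 2019 CPM in control CD4, CD8 and DN cells and at 8687, 5833 and 8229 CPM in IR cells, and Nfkbia at 439, 436 and 462 CPM and 2296, 1294 and 2142 CPM. Fos, Jun and Egr1 were not called. The part of this in the Socs1 and Socs3 differences was not tested. Markers of other cells were mostly low. The summed level of 8 myeloid markers was 102 to 109 CPM in control and 145 to 248 CPM in IR libraries, of which Cst3 alone gave 92.6 to 146 CPM. The neutrophil genes S100a8 and S100a9 were at 35.8 and 49.8 CPM in IR CD4 cells and at 4.57 CPM or lower in the other libraries. The 5 B cell markers summed to 121 to 180 CPM, mostly Ighm, the 5 endothelial markers to 45.6 to 129 CPM, nearly all Pecam1, and the 7 tubule markers to 1.86 to 3.19 CPM, while Cdh5 was at 0.23 CPM or lower in every library. The 5 natural killer markers, which T cells also express, summed to 62.6 to 306 CPM in control and 142 to 617 CPM in IR libraries. The summed level of 5 erythroid markers was 1.87 to 2.06 CPM in control and 20.6 to 28.1 CPM in IR libraries. Without the cluster of 242 cells with the highest myeloid marker level, the counts of members called were the same in all 9 comparisons.

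**Figure D4:**
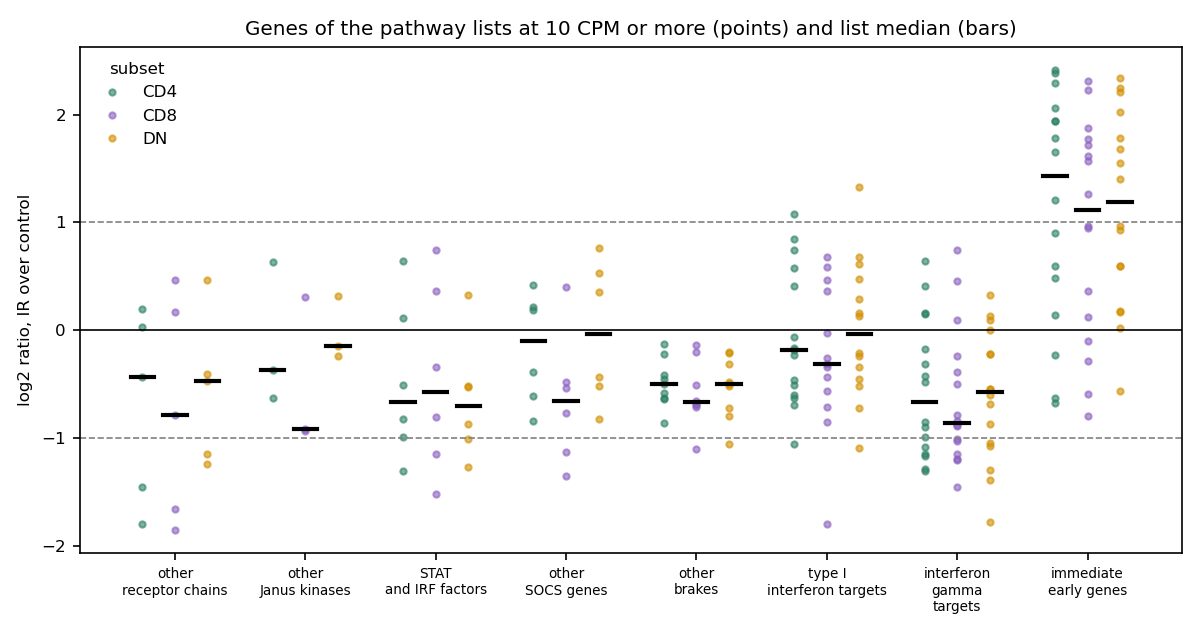
The log2 ratio of IR over control (y axis) for each gene at 10 CPM or more of 8 lists (x axis) in CD4, CD8 and DN cells, with a bar at the list median and dashed lines at 2-fold. The interferon gamma targets lay mostly below 0 (medians -0.57 to -0.86, beside -0.26 to -0.38 for all genes). The immediate early genes had medians between 1.12 and 1.43.

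The genes most like each member over the 6 libraries were sought among 7411 genes at 10 CPM or more in every library, by the root mean square difference of centred log2 levels. For Ifngr1 they were Tex14 (0.080), Il18r1 (0.085), a chain of the interleukin-18 receptor, and Rhob (0.11). For Ifnar1 they were Cnpy3, Ttc33 and Tpgs2 (0.034 to 0.037), and for Ifnar2 Erich1, Atr and G2e3 (0.049 to 0.060). Genes like Jak1 were Zcchc7 (0.019) and Strbp (0.040). For Socs1 they were Gm20186, Btg1 and Pofut2 (0.14 each), and for Socs3 Frat2, Nr4a1 and Snhg15 (0.34 to 0.39), so that Socs3 had looser neighbours. Nr4a1, an immediate early gene that responds to T cell receptor signals, was at 55.4, 56.9 and 47.0 CPM in control CD4, CD8 and DN cells and at 295, 267 and 224 CPM in IR cells. Ifngr2 was under 10 CPM in 3 libraries and was not matched.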

How the data were processed

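The deposited matrices hold raw UMI counts for each gene in each barcode. The authors made them from 10x Genomics 3' libraries with Cell Ranger at default settings on mm10. The labels name version 6.0.1, whereas file headers name 5.0.1 for the control libraries. The sources used here do not give the use of intronic reads or of strand.

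Barcodes were kept with at least 500 features and at most 20% mitochondrial UMIs, without the 5% with most UMIs of each library (removed as likely doublets, as in the study; no doublet caller was run). After clustering (scanpy 1.11.5, igraph 0.11.9), 2 of 23 clusters (338 barcodes) with a Cd3 UMI in under 50% of cells were removed. Ribosomal, mitochondrial and Malat1 features (98) were left out, and 21109 features found in at least 5 cells were kept. Counts were summed per library. A count of 0 was set to 3 in ratios. Intervals are exact Poisson for levels, exact conditional binomial for ratios and exact Clopper-Pearson for shares. Each group was 1 library, so no test was run.

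Genes were annotated with GENCODE M21, and 99.8% of features matched. The members and lists were chosen with earlier results of these data known. The text names the 7 members, at most 4 called genes at 50 CPM or more for each pathway list and comparison, and the 3 genes most like each member. A few genes that these rules would name are not reported here. Other genes (Il10rb, Il6st, Il6ra, Il12rb1, Irf1, Socs5, Ifit2, Ccr7, Klf2, Il7r, Foxp3, the immediate early, sort and marker genes) were named after their values were seen. Alternatives changed the scaling (TMM with edgeR 4.0.16), the cell filters, the thinning and the level limit.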

Additional observations from a re-analysis of the deposited data

Results flagged for a closer look

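Socs3 was found in barcodes left out of all comparisons. In the 303 barcodes removed as non-T from the IR libraries it was at 224 CPM (92 UMIs, 181 to 275), above the 8.71 CPM (1 UMI, 0.221 to 48.5) in the 35 such barcodes of the control libraries. By library it was at 218, 185 and 272 CPM in the non-T barcodes of IR CD4, CD8 and DN cells and at 0, 0 and 23.7 CPM in those of the control libraries. The IR libraries were not independent there. Of the 303 IR barcodes, 281 had a sequence found among the non-T barcodes of another IR library, and the 303 held 120 distinct sequences, of which 85 occurred in all 3 IR libraries. None of the 35 control barcodes shared its sequence. The counting interval of the IR level takes these barcodes as separate and may be too narrow. The cell type of these barcodes was not determined. No other member was higher there in the IR libraries beyond its counting interval.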

How the results depend on the processing

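With 1 library per group, no spread between replicates could be measured and no library could be left out. No paired analysis was possible because the labels give no replicate numbers and each group has 1 library. The 3 sorted subsets are different cells and not replicates of a condition. The number of members called was the same as reported in the 9 comparisons under TMM scaling, the looser and stricter cell filters, with non-T clusters kept, and in 2 alternatives chosen after seeing the data (without the cluster highest in myeloid markers, and without barcodes found in several libraries). Keeping ribosomal, mitochondrial and Malat1 UMIs in the total moved all log2 ratios of IR over control by -0.18 in DN, -0.42 in CD8 and -0.35 in CD4 cells. The members called in CD8 cells were then 5 (Ifnar1 and Ifnar2 lower, added to the 3 reported), and those called between IR DN and CD8 cells were 2. Between control DN and CD4 cells, 1 member (Ifngr2, lower) was called with cells thinned to 500 UMIs, with a mean over cells and with no minimum level, as against 0 reported. With no minimum, Ifngr2 was also called higher in IR DN cells, giving 3 members. Between control DN and CD8 cells, 0 were called with a minimum of 50 CPM. No called member changed direction under any of these settings. Over all settings the log2 ratio of IR over control ranged from 1.42 to 1.82 for Socs1 and 1.50 to 1.88 for Socs3 in DN cells, and that of Jak1 from -0.62 to 0.21. Ifngr2 in DN cells rests on 71 and 23 UMIs and could not be centred by intron length.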
